A study of Mus musculus with 4 samples.

Results

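The EGF receptor family and its ligands were followed through the epithelial classes of the mouse mammary gland. The group held 9 of the 31053 genes in the count matrices and was chosen by name, without use of any measured value. It comprised the receptors Egfr, Erbb2 and Erbb3 and the ligands Areg (amphiregulin), Ereg (epiregulin), Hbegf (heparin-binding EGF-like growth factor), Tgfa, Btc (betacellulin) and Nrg1 (neuregulin 1). The study used 4 droplet-based 3′ RNA libraries of mammary epithelial cells from FVB mice of the genotype Tfap2cfl/fl / Krt5-CreERT2, taken at postnatal week 9. Corn oil, the vehicle, had been given for 2 of them and 4-hydroxytamoxifen (4OHT) for the other 2, from week 4. Both groups carried the floxed alleles and the Cre, so the controls differed from the treated mice by the injected agent. In this model the tamoxifen-activated Cre is made under the Krt5 promoter, which is used by basal cells, and luminal cells would carry the deletion only by descent or by Krt5 use of their own. The labels disagree on how long injections lasted (5 days by the characteristics, longer by the protocol), and do not say whether a library is a single mouse or a pool. With nothing in the labels on separate animals, p-values of treatment within a class rest on the spread between these libraries. Where classes were compared, with library as a block, they rest on how far class differences varied between libraries.

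The ERBB receptors are membrane tyrosine kinases that pair when a ligand binds and signal through the RAS-ERK and PI3K-AKT routes. EGFR binds EGF, amphiregulin and TGF-alpha, HB-EGF and betacellulin bind EGFR and ERBB4, neuregulins bind ERBB3 and ERBB4, and ERBB2 has no known ligand of its own and acts as a partner. The ligands are made as membrane-anchored precursors that metalloproteases such as ADAM17 cut free. In the pubertal mammary gland, amphiregulin is known as the paracrine signal by which oestrogen-responsive luminal cells drive growth of the ducts.

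Genes were placed on GRCm38 with GENCODE M21. Areg occupies chromosome 5, 91139599 to 91148432 (plus strand), in a run of EGF-like ligand genes (Epgn, Ereg, Areg and Btc) that spans 376 kb from 91027464 to 91402994. Egfr and Erbb2 lie on chromosome 11 (16752203 to 16918158 and 98412470 to 98437716), Erbb3 on chromosome 10 (128567523 to 128589652) and Tgfa on chromosome 6 (86195223 to 86275719). Egfr, Erbb2, Ereg and Nrg1 each overlap 1 other gene of the count matrices (Egfros, Mien1, Gm19610 and Gm26578). The strand setting of the authors' counting is not given in the sources used here, so reads of these genes and their overlapping partners cannot be told apart with certainty. RefSeq promoter sequences of GRCm38.p6 matched 5 of the 9 genes (Egfr, Erbb2, Areg, Tgfa and Btc), and the 250 bases before the start were searched on both strands for the AP-2 motif GCCNNNGGC, since the floxed gene encodes AP-2γ, for the cAMP response element TGACGTCA and for the TATA box TATAAA. The 3 windows that follow are shown for a ligand whose level was highest in hormone-sensing luminal cells (Areg), a ligand whose level was highest in basal cells (Tgfa), and the receptor whose level was highest in basal cells (Egfr). They read 5′ to 3′ on the plus strand at chr5:91139349-91139598, chr6:86194972-86195221 and chr11:16751953-16752202, with motif matches in capitals.
Areg: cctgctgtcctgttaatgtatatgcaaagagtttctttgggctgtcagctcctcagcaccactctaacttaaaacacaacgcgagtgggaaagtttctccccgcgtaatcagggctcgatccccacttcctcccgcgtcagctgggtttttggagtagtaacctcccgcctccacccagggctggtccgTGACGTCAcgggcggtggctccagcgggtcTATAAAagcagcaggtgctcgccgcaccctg
Tgfa: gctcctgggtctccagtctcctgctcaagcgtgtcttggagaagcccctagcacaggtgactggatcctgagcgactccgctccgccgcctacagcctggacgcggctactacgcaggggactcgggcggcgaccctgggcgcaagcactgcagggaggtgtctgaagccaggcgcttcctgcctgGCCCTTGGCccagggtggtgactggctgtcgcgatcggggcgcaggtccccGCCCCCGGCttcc
Egfr: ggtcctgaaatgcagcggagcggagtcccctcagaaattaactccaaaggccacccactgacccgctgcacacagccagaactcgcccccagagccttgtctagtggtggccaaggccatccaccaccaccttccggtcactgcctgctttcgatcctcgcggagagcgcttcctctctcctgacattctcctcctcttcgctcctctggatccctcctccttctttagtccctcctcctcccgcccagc
Areg held 1 cAMP response element 61 bases before the start and 1 TATA box 31 bases before it. Of 32851 promoter windows of this length, 1.55% held the first motif and 12.4% the second. Tgfa held 2 AP-2 matches, which begin 64 and 13 bases before the start, and 13.7% of all windows held at least 1. None of the 3 motifs was in the windows of Egfr, Erbb2 and Btc. A match describes the letters only.

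Cells with at least 1000 UMIs were sorted into classes by their keratin counts, with no use of the 9 genes. A cell was basal where Krt5, Krt14, Krt17 and Acta2 together gave at least 5 UMIs and more than 3 times the sum of Krt8, Krt18 and Krt19, and luminal where the reverse held. A luminal cell was hormone-sensing where Ly6d, Fxyd2 and Gpx3 gave at least 3 UMIs and more than Wfdc18, Csn3 and Ltf, and otherwise a luminal progenitor. This gave 7028 basal cells, 5629 luminal progenitors and 1168 hormone-sensing cells among 18223 barcodes. The libraries held 17351950 to 22017878 UMIs, with medians of 3055 to 5299.5 per cell. Among markers that the rule did not use, 3 basal genes (Trp63, Myh11 and Oxtr) summed to 381 to 455 CPM in basal cells and to at most 17.5 CPM in the luminal classes. The 4 hormone-sensing genes Prlr, Esr1, Pgr and Cited1 summed to 911 to 1542 CPM in their own class and to at most 97.4 CPM elsewhere, and the 4 progenitor genes Kit, Elf5, Aldh1a3 and Cd14 to 660 to 1208 CPM in progenitors and at most 50.9 CPM elsewhere. Between 18 and 36 barcodes were shared by any pair of libraries, at most 0.749% of either. Tfap2c, the targeted gene, stood at 389 and 285 CPM in the basal cells of the corn oil libraries and at 285 and 325 CPM in those labelled 4OHT (log2 difference -0.08, SE 0.25, adjusted p = 0.999 in edgeR's quasi-likelihood test). The 3′ counts of Tfap2c did not separate the groups, and the 4OHT group is named by its label throughout. A 3′ tag outside the deleted part would not register the deletion. Whether the deletion took place, and in what share of cells, was not tested.

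The receptors divided the classes in opposite ways. Egfr was high in basal cells and nearly absent from hormone-sensing cells, and Erbb3, the kinase-impaired receptor for neuregulins, was high in both luminal classes and low in basal cells. CPM here is a gene's UMIs per 1000000 UMIs of its class in a library, a scale on which 1 gene can be compared between classes but not with another gene. Basal cells held 38.8 CPM of Egfr in corn oil replicate 1, 33.6 in corn oil replicate 2, 37.6 in 4OHT replicate 1 and 32.0 in 4OHT replicate 2. With the libraries in this order, luminal progenitors held 19.8, 14.0, 29.5 and 11.8 CPM and hormone-sensing cells 1.54, 1.76, 3.22 and 1.18 CPM, from 13 UMIs in all. The 3 classes did not overlap, and 4OHT replicate 1 was the highest library in both luminal classes. Egfr was 18.8 times lower in hormone-sensing than in basal cells (log2 -4.23, SE 0.32, adjusted p = 1.11e-08, edgeR's quasi-likelihood test with Benjamini-Hochberg adjustment). It was lower in luminal progenitors than in basal cells by a log2 of -0.71 (SE 0.18, edgeR adjusted p = 0.00308), a call that was lost without 4OHT replicate 2 (adjusted p = 0.0513).

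Erbb3 showed the reverse order. Basal cells held 1.61, 2.45, 1.18 and 1.06 CPM (corn oil 1 and 2, then 4OHT 1 and 2). Luminal progenitors held 23.7, 44.6, 22.3 and 19.8 CPM, and hormone-sensing cells 43.9, 33.5, 32.2 and 39.8 CPM. Every luminal value exceeded every basal value, while the luminal classes overlapped, with corn oil replicate 2 the highest among progenitors. Erbb3 was 20.3 times higher in progenitors than in basal cells (log2 4.34, SE 0.23, edgeR adjusted p = 1.90e-10) and 24.3 times higher in hormone-sensing cells (log2 4.60, SE 0.24, edgeR adjusted p = 2.03e-10). The luminal classes differed by a log2 of 0.26 (95% interval -0.12 to 0.65, edgeR adjusted p = 0.255), and without corn oil replicate 2 this difference passed the test (adjusted p = 0.0344).

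Erbb2, the ligandless partner receptor, followed Erbb3 in direction with a smaller difference. It stood at 4.08, 3.67, 3.71 and 2.28 CPM in basal cells, at 9.77, 6.94, 6.90 and 6.28 CPM in luminal progenitors, and at 12.3, 5.29, 12.9 and 7.09 CPM in hormone-sensing cells. All basal values lay below all luminal ones, and the luminal classes overlapped. The log2 difference from basal cells was 1.39 in progenitors (SE 0.23, edgeR adjusted p = 7.21e-05) and 1.44 in hormone-sensing cells (SE 0.27, edgeR adjusted p = 0.000220). Between the luminal classes it was 0.05 (95% interval -0.47 to 0.57, edgeR adjusted p = 0.891).

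**Figure D1:**
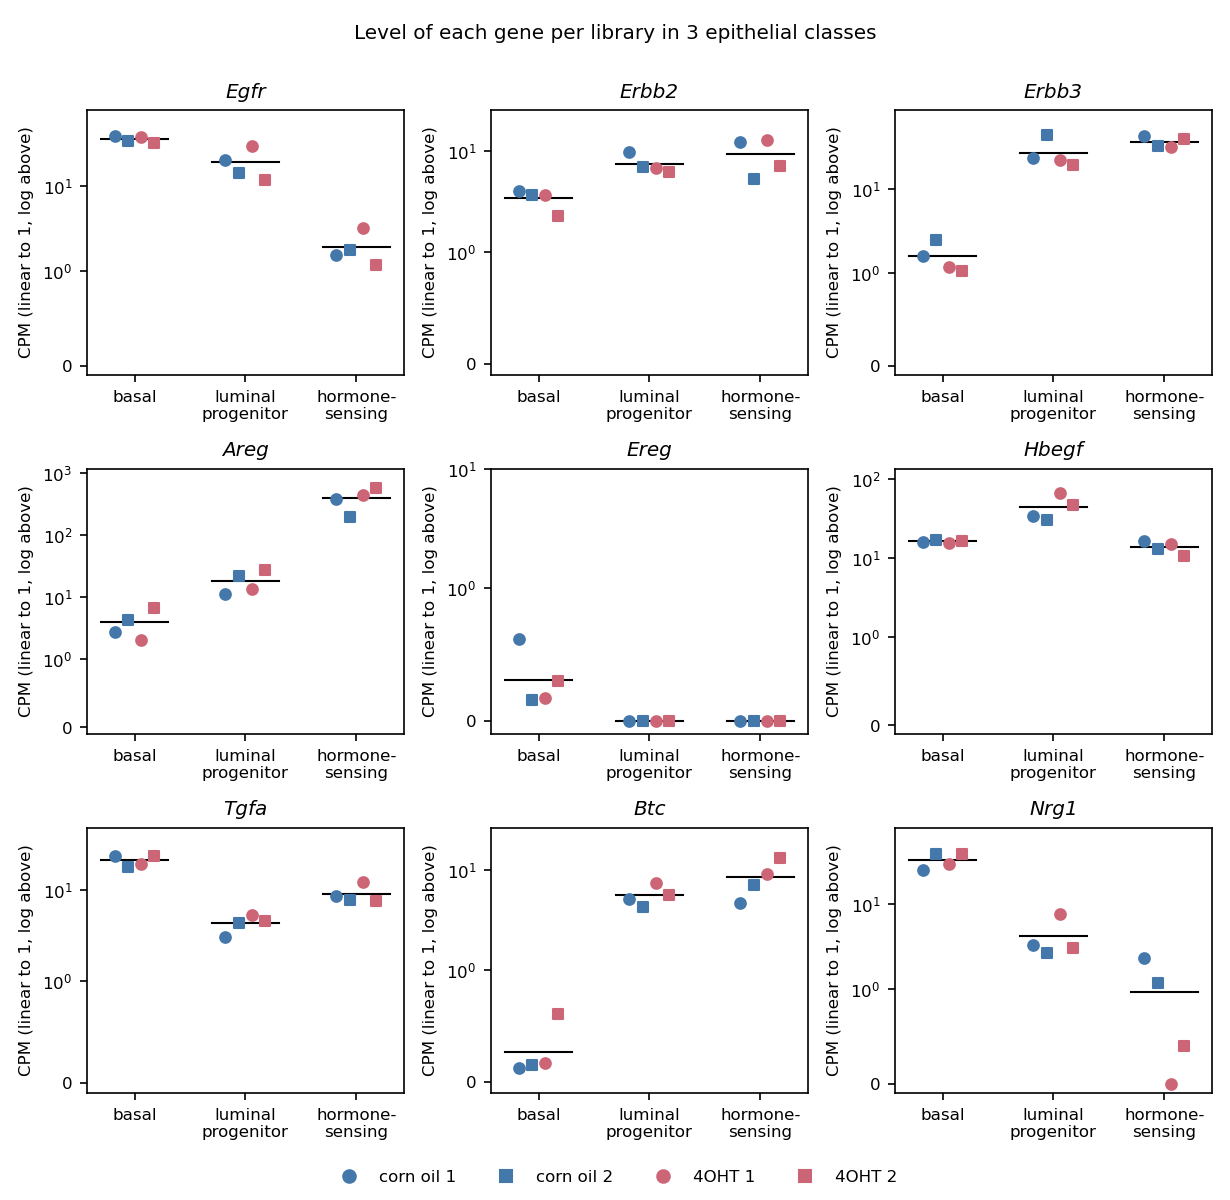
Level of each of the 9 genes in CPM (vertical axis, linear up to 1 and logarithmic above) in basal, luminal progenitor and hormone-sensing cells, with 1 point per library and the mean of 4 libraries as a bar. Egfr falls from 32.0 to 38.8 CPM in basal cells to at most 3.22 in hormone-sensing cells, while Areg rises from at most 6.68 to between 199 and 589.

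Among the ligands, Areg set hormone-sensing cells apart. These cells held 391 and 199 CPM with corn oil and 439 and 589 CPM with 4OHT. Luminal progenitors held 11.0, 21.8, 13.6 and 27.2 CPM and basal cells 2.72, 4.28, 2.02 and 6.68 CPM. The 3 classes did not overlap. Areg was 104 times higher in hormone-sensing than in basal cells (log2 6.70, SE 0.29, edgeR adjusted p = 2.63e-11) and 18.6 times higher than in progenitors (log2 4.22, SE 0.24, edgeR adjusted p = 2.22e-09). Progenitors exceeded basal cells by a log2 of 2.48 (SE 0.28, edgeR adjusted p = 1.32e-06). Under a stricter class rule the differences from basal cells were larger, at 7.65 and 3.23.

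The spread of Areg over cells differed between the luminal classes. In luminal progenitors the 1% of cells with the most Areg held 81.8% to 88.8% of its UMIs, with 36 to 52 UMIs in the highest cell of each library. In hormone-sensing cells the highest 1% held 20.5% to 29.5%, with 31 to 75 UMIs in the highest cell. The progenitor level thus rested on few cells, and doublets were not removed beyond the keratin rule, so the part of mixed droplets was not tested. Progenitors were all luminal cells that did not meet the hormone-sensing rule. The hormone-sensing markers outside the rule summed there to 26.7 and 62.6 CPM with corn oil and 19.8 and 97.4 CPM with 4OHT. Like Areg, they were higher in both replicate 2 libraries. The part of hormone-sensing cells placed among progenitors was not tested. After every cell had been thinned to 1000 UMIs, Areg was detected in 14.6% (22 of 151), 7.58% (25 of 330), 12.5% (30 of 240) and 22.8% (102 of 447) of hormone-sensing cells. Shares before thinning are higher because depth is higher, as in corn oil replicate 1 with 35.1%. The thinned shares were 0.734% to 1.15% in progenitors and 0.134% to 0.517% in basal cells. None of the 49, 38 and 105 endothelial-like cells of corn oil 2, 4OHT 1 and 4OHT 2 had an Areg UMI, which allows up to 6.12%, 7.89% and 2.86% of cells with a UMI and sets no limit on cells that express the gene. Median depths before thinning were 1897 to 3270.5 UMIs in these cells and 4745.5 to 8258 in hormone-sensing cells. Exact Clopper-Pearson 95% intervals cover counting error only.

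The hormone receptors were set beside Areg inside the hormone-sensing class. Cells were thinned to 2000 UMIs, which left out 19 shallower cells, and split by a Pgr (progesterone receptor) UMI. Areg was lower in the cells with Pgr in 3 libraries, at 156 against 374, 128 against 150 and 247 against 595 CPM in corn oil 1, corn oil 2 and 4OHT 2. In 4OHT replicate 1 it was higher, at 444 against 391 CPM. Without thinning, the direction turned in corn oil replicate 2 and in 4OHT replicate 1. A split by Esr1 (oestrogen receptor alpha) gave higher Areg with the receptor in 1 of 4 libraries, and a split by Prlr (prolactin receptor) in 2 of 4, against 2 and 3 of 4 without thinning. No direction was shared by the 4 libraries, and an exact permutation test of 4 pairs could not reach 0.05.

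**Figure D2:**
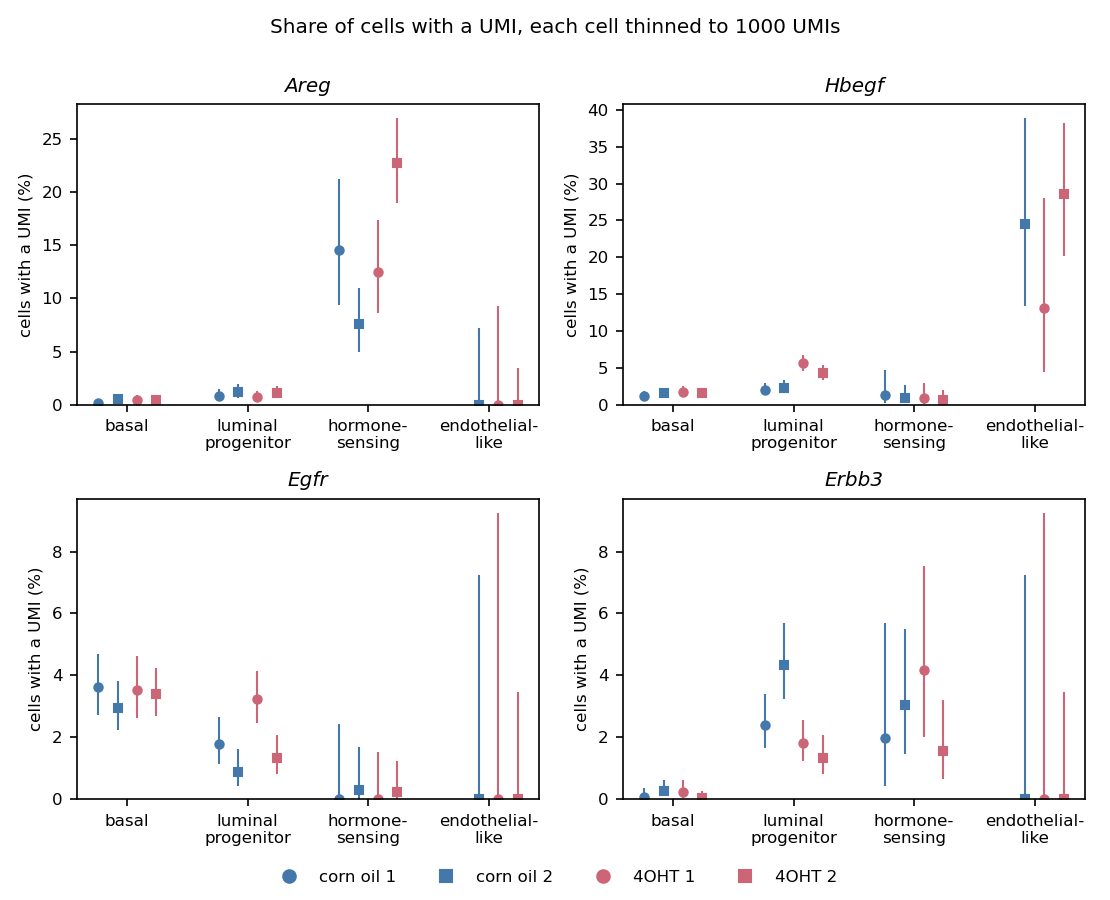
Percentage of cells with a UMI of Areg, Hbegf, Egfr or Erbb3 after each cell was thinned to 1000 UMIs, per library (points) with exact 95% intervals (bars), for classes with at least 20 cells in the library. Areg is found in 7.58% to 22.8% of hormone-sensing cells and in none of the endothelial-like cells, where Hbegf is found.

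Hbegf (chromosome 18, 36504927 to 36515805) marked luminal progenitors. This class held 34.1 and 29.7 CPM with corn oil and 66.4 and 46.0 CPM with 4OHT. Basal cells held 15.9, 17.0, 15.5 and 16.2 CPM and hormone-sensing cells 16.2, 12.9, 14.8 and 10.6 CPM. Every progenitor value exceeded every value of the other classes. Progenitors were 3.17 times above basal cells (log2 1.66, SE 0.21, edgeR adjusted p = 3.77e-06), and hormone-sensing cells were below progenitors by a log2 of -1.95 (SE 0.25, edgeR adjusted p = 8.24e-06). Hormone-sensing and basal cells differed by a log2 of -0.28 (95% interval -0.83 to 0.27, edgeR adjusted p = 0.364). In basal cells the 1% of cells with the most Hbegf held 42.4% to 64.9% of its UMIs, against 20.1% to 28.3% in progenitors. Hbegf was highest of all in the endothelial-like cells, with 104, 51 and 276 UMIs (654, 374 and 1051 CPM) in corn oil 2, 4OHT 1 and 4OHT 2, while corn oil 1 had only 5 such cells. Summed endothelial markers were 9.64 to 48.9 CPM in progenitors and 7.58 to 52.7 CPM in basal cells. Without cells holding at least 3 UMIs of endothelial, leukocyte or collagen and lumican markers, a setting chosen after seeing the data, all class calls of Hbegf were kept.

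Tgfa and Nrg1 stood highest in basal cells. Tgfa, an EGFR ligand, was at 23.2, 17.6, 19.2 and 23.7 CPM in basal cells, at 3.03, 4.30, 5.36 and 4.51 CPM in progenitors and at 8.48, 7.65, 12.2 and 7.48 CPM in hormone-sensing cells. The 3 classes did not overlap. It was lower in progenitors than in basal cells by a log2 of -2.02 (SE 0.20, edgeR adjusted p = 3.91e-07) and lower in hormone-sensing cells by -1.24 (SE 0.23, edgeR adjusted p = 0.000219). The luminal classes differed by 0.77 (SE 0.27, edgeR adjusted p = 0.0244), and this call was lost under a stricter class rule (adjusted p = 0.0875) and without corn oil 1, corn oil 2 or 4OHT 1 (adjusted p = 0.0834, 0.0676 and 0.0710).

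Nrg1 (chromosome 8, 31814551 to 32884029), the ligand of ERBB3 and ERBB4, stood at 25.2, 39.5, 29.8 and 39.2 CPM in basal cells. Luminal progenitors held 3.30, 2.64, 7.74 and 3.06 CPM, with 4OHT replicate 1 the highest. Hormone-sensing cells held 3, 2, 0 and 1 UMIs. All basal values lay far above the luminal ones. The log2 difference from basal cells was -2.71 in progenitors (SE 0.30, edgeR adjusted p = 1.10e-06) and -5.26 in hormone-sensing cells (SE 0.53, edgeR adjusted p = 3.12e-07). The latter rested on 6 UMIs and was -6.02 without corn oil 1 and -6.63 under the stricter class rule. Between the luminal classes the difference was -2.55 (SE 0.70, edgeR adjusted p = 0.00609), with -3.30 without corn oil 1, -1.74 without 4OHT 1 and -3.81 under the stricter rule. In basal cells, which held the most Nrg1, its receptor Erbb3 was at its lowest.

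Btc and Ereg were sparse. Btc, which binds EGFR and ERBB4, gave 1, 1, 1 and 4 UMIs in basal cells, 5.09, 4.30, 7.38 and 5.63 CPM in progenitors and 4.63, 7.06, 9.01 and 13.0 CPM in hormone-sensing cells. Both luminal classes lay above basal cells (log2 4.59, SE 0.41, edgeR adjusted p = 6.92e-08 in progenitors, and log2 4.91, SE 0.45, edgeR adjusted p = 8.67e-08 in hormone-sensing cells). Both differences rested on few basal UMIs. Btc passed the filter on low counts through the luminal classes, which favours this direction. The first difference was 5.32 without 4OHT replicate 2, and under the stricter class rule the differences were 5.21 and 5.60. The luminal classes differed by 0.32 (95% interval -0.30 to 0.94, edgeR adjusted p = 0.393). Ereg gave 5, 1, 1 and 2 UMIs in basal cells and none in either luminal class, did not pass the filter on low counts and was not tested. A count of 0 in a hormone-sensing class allows a level of up to 1.18 to 2.31 CPM per library, by counting error alone.

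**Figure D3:**
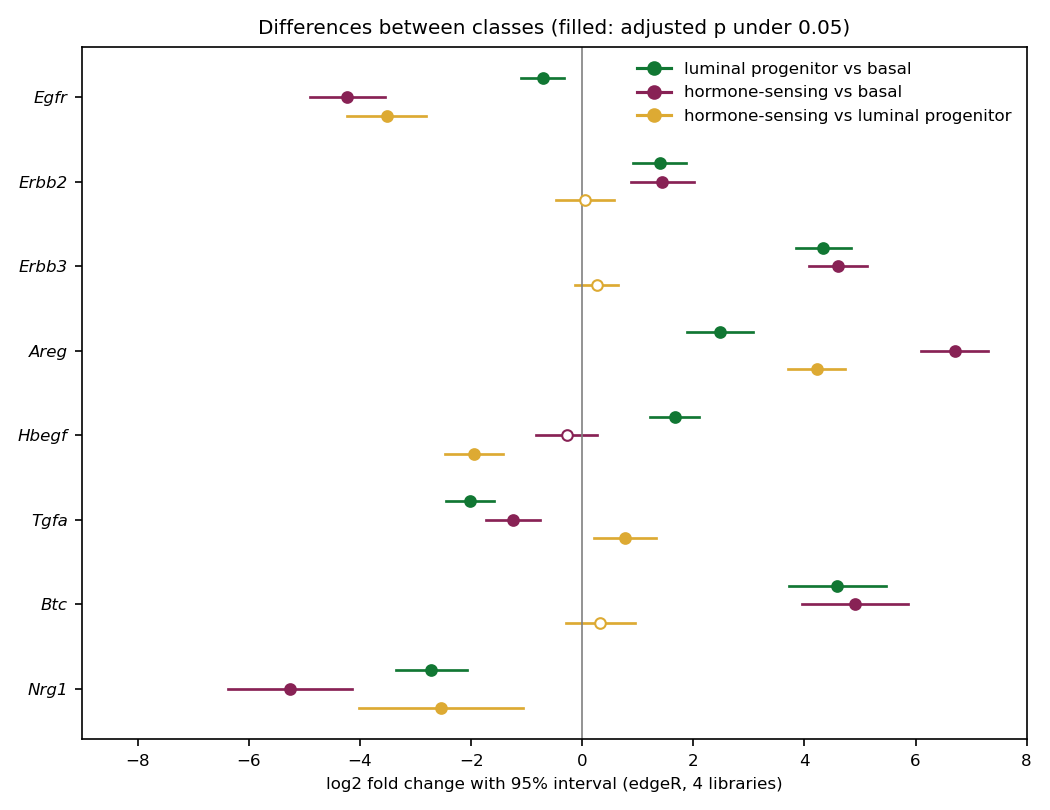
Log2 fold change between classes (horizontal axis) for the 8 tested genes with 95% intervals, from edgeR over 4 libraries. Egfr and Nrg1 lie left of 0 in the comparisons with basal cells, down to -4.23 and -5.26, and Erbb3, Areg and Btc lie right of it.

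Of the 9 genes, 8 entered the class comparisons. In luminal progenitors against basal cells 8 of 8 passed the test, 5 higher and 3 lower, where 56.1% of all 11135 genes tested passed (26.6% higher and 29.5% lower). In hormone-sensing against basal cells 7 of 8 passed, 4 higher and 3 lower, against 59.8% of all genes (27.3% higher and 32.4% lower). Between the luminal classes 5 of 8 passed, 2 higher and 3 lower in hormone-sensing cells, against 46.4% (21.9% higher and 24.6% lower). With a background this high, the share of calls among the 8 says little about the group, and the differences rest on the sizes above.

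Of the 6 remaining receptor and ligand genes, 3 passed the filter on low counts. The filter admitted a gene with enough counts in a single class, so a gene could enter through the class where it was high. Erbb4, the second receptor of the neuregulins, gave 74 UMIs in luminal progenitors, 2 in basal cells and 0 in hormone-sensing cells. It entered through progenitors alone and was higher there than in basal cells (log2 5.05, edgeR adjusted p = 7.42e-06). The filter favoured this direction, so the test adds little to the counts. Epgn, the epigen gene of the ligand run on chromosome 5, stood at 6.93 ± 6.41 CPM (SD, n = 4) in hormone-sensing cells and 0.429 ± 0.384 CPM (SD, n = 4) in basal cells (log2 3.84, edgeR adjusted p = 1.61e-05). Its basal level was too low for it to enter through basal cells, so the filter favoured this direction too. The level in hormone-sensing cells varied widely between libraries. Nrg2 was lower in both luminal classes than in basal cells (log2 -2.51 and -2.94, edgeR adjusted p = 7.31e-05 and 0.000675). Egf, Nrg3 and Nrg4 did not pass the filter.

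More inhibitors of the pathway were called lower than higher in the luminal classes. Of 17 tested genes on the list of inhibitors and feedback regulators, 11 were lower and 2 higher in progenitors than in basal cells (median log2 -0.85, against -0.04 over all genes, of which 29.5% were lower and 26.6% higher), and 12 were lower and 1 higher in hormone-sensing cells (median log2 -1.02, against -0.08 over all genes, of which 32.4% were lower and 27.3% higher). Socs3, a cytokine signalling suppressor, was lower by a log2 of -3.11 in progenitors, Lrig3 by -2.32 and Spry1, a sprouty inhibitor of RAS-ERK signalling, by -2.18. Dusp5, a nuclear ERK phosphatase, was higher in progenitors by 2.06 and lower in hormone-sensing cells by a log2 of -1.96. In hormone-sensing cells Lrig3 was lower by a log2 of -5.61 from 2 UMIs, Sh3kbp1 by -4.02 from 1 UMI, Dusp6, a cytoplasmic ERK phosphatase, by -3.04 and Spry2 by -2.62. Errfi1, which encodes the EGFR inhibitor MIG6, was at 834 ± 134 CPM in basal cells, 552 ± 132 in progenitors and 166 ± 22.4 in hormone-sensing cells (SD, n = 4), a log2 of -2.31 for the last against the first.

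Targets of ERK signalling moved in both directions in progenitors and were more often lower than higher in hormone-sensing cells. In progenitors 3 of 10 were higher and 4 lower than in basal cells (median log2 -0.41), and in hormone-sensing cells 1 was higher and 6 lower (median log2 -1.27). Thus 7 of 10 passed in each comparison, where 56.1% and 59.8% of all genes did, and this count without direction does not set these targets apart. By direction, 29.5% of all genes were lower and 26.6% higher in progenitors (median log2 -0.04). In hormone-sensing cells 32.4% of all genes were lower and 27.3% higher (median log2 -0.08), beside the 6 lower and 1 higher of these 10. Fosl1 (-3.70), Egr1 (-3.22) and Etv5 (-3.02) were lower in hormone-sensing than in basal cells on the log2 scale, and Ccnd1, which encodes cyclin D1, was higher (2.15). Etv4 was lower by -2.83 in progenitors, while in hormone-sensing cells it stood at 9.55 ± 2.07 CPM against 8.50 ± 1.18 in basal cells (SD, n = 4). Summed genes of a cell preparation stress list, which shares Fos, Junb, Egr1 and Ier3 with these targets, were 5491 to 7452 CPM in basal cells, 4956 to 9119 in progenitors and 2555 to 4245 in hormone-sensing cells, and their part in the result was not tested.

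Shedding and adaptor genes also moved in both directions. Of 7 shedding and trafficking genes, 2 were higher and 1 lower in progenitors than in basal cells, and 1 was higher and 3 lower in hormone-sensing cells. Adam10, a sheddase of EGF-like ligands, was at 85.7 ± 8.08 CPM in hormone-sensing cells and 10.9 ± 2.86 in basal cells (SD, n = 4, log2 3.01), and Timp3, an inhibitor of such proteases, was lower there (log2 -3.33). Adam17, the main sheddase of amphiregulin, did not pass the test, at 8.67 ± 3.28 CPM in hormone-sensing cells and 10.3 ± 3.10 in basal cells (SD, n = 4). Of 21 adaptor and signalling genes, 8 were higher and 5 lower in progenitors, and 6 were higher and 9 lower in hormone-sensing cells. Beside the 56.1% and 59.8% of all genes called, neither count sets these lists apart. Gab2 was higher in progenitors (log2 2.87) and Stat5a, a transducer of prolactin signalling, higher in hormone-sensing cells (log2 2.52), where Gab1 and Pik3r1 were lower (-1.36 and -1.29).

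**Figure D4:**
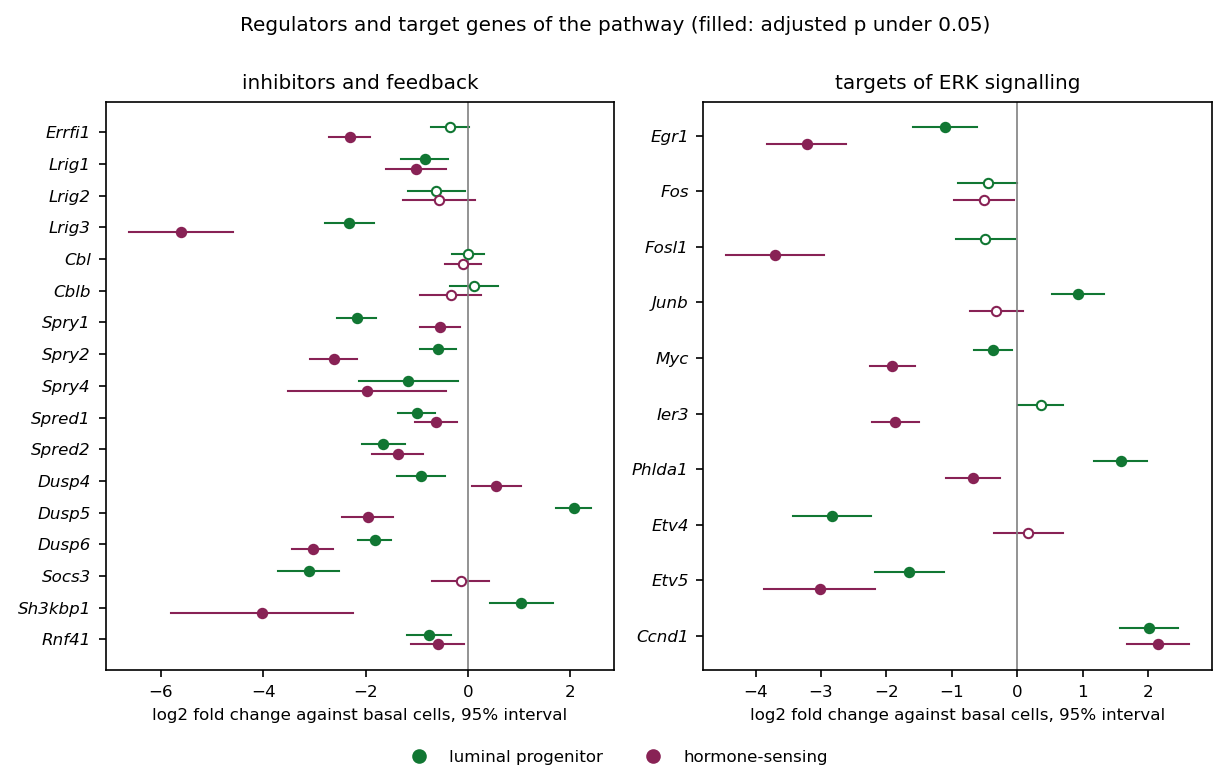
Log2 fold change against basal cells (horizontal axis, 95% intervals, edgeR over 4 libraries) of inhibitors and feedback regulators and of ERK target genes, in luminal progenitor and hormone-sensing cells, with filled points for adjusted p under 0.05. Most inhibitors lie left of 0, with Lrig3 at -5.61 in hormone-sensing cells, a value that rests on very few UMIs in that class.

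The question of the series, what loss of Tfap2c in Krt5-expressing cells does, was asked of the 9 genes within each class. In basal cells 7 genes were tested and none passed, as none of all 10788 genes did (0% called, with 465 genes at an unadjusted p under 0.05 in edgeR and 38 calls in DESeq2). Egfr and Hbegf had the smallest differences there, with a log2 of -0.02 (95% interval -0.59 to 0.55) and -0.0033 (95% interval -0.64 to 0.64). Erbb3 had the largest difference of the 7, -0.80 (95% interval -2.11 to 0.51). Erbb3 was the only 1 of the 7 whose groups did not overlap, where 30.7% of all genes did not. With a replicate block, more of all genes were called in basal cells, but none of the 7 members.

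In luminal progenitors 8 genes were tested and none passed, again with 0% of 10120 genes called (166 at an unadjusted p under 0.05, 1 call in DESeq2). Hbegf had the smallest p of the group. Its values, 34.1 and 29.7 CPM against 66.4 and 46.0 CPM, did not overlap, and the log2 difference was 0.90 (SE 0.30, 95% interval 0.23 to 1.57, edgeR adjusted p = 1.00). It ranged from 0.68 to 1.09 when each library was left out and was 0.89 without cells holding markers of other types. After thinning, 2.02% and 2.30% of corn oil progenitors and 5.59% and 4.24% of 4OHT progenitors had an Hbegf UMI, which did not overlap either. Erbb2, Erbb3, Tgfa and Btc also did not overlap, so that 5 of 8 genes did not, where 24.9% of all genes did not. Nrg1 differed by a log2 of 0.94 (SE 0.51) and by 0.19 without 4OHT replicate 1. Summed stress genes stood at 9119 and 4956 CPM in the corn oil progenitors and at 7539 and 8042 CPM in the 4OHT progenitors, which overlapped. Summed basal markers did not overlap in progenitors, at 245 and 252 CPM with corn oil and 374 and 315 CPM with 4OHT. The 3 basal markers outside the class rule did, at 11.1 and 8.59 against 17.5 and 9.50 CPM. The part of basal RNA in the Hbegf levels was not tested.

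In hormone-sensing cells 6 genes were tested and none passed, where 0.0132% of 7589 genes did (1 gene, Ctsr, log2 4.29, edgeR adjusted p = 0.0383, with 240 genes at an unadjusted p under 0.05 and 7 calls in DESeq2). Areg, at 391 and 199 against 439 and 589 CPM, had a log2 difference of 0.79 (SE 0.32, 95% interval 0.07 to 1.51, edgeR adjusted p = 1.00), between 0.46 and 1.26 when each library was left out. Its levels did not overlap between groups, but the thinned shares of cells with Areg did, since corn oil replicate 1 (14.6%) exceeded 4OHT replicate 1 (12.5%). Btc was the other gene of the 6 without overlap, at 4.63 and 7.06 against 9.01 and 13.0 CPM, where 30.5% of all genes did not overlap. Summed fibroblast markers in the class were 243, 51.8, 1336 and 237 CPM, with the highest value in 4OHT replicate 1. Summed stress genes (3409 and 2555 against 3581 and 4245 CPM) and hormone-sensing markers (3963 and 3825 against 4557 and 4395 CPM) were higher in both 4OHT libraries, while the 4 hormone-sensing markers outside the class rule overlapped (1271 and 911 against 1115 and 1542 CPM). The part of any of these in the Areg levels was not tested. An action of 4OHT itself cannot be told apart from that of any deletion, which the Tfap2c counts did not show.

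The difference in effect between classes was also tested. For Hbegf the effect in progenitors exceeded that in basal cells by a log2 of 0.90 (SE 0.32, edgeR adjusted p = 1.00), and for Areg the effect in hormone-sensing cells exceeded that in basal cells by 0.48 (SE 0.57, edgeR adjusted p = 0.920). No member passed either test, where 0% and 0.00898% of 11135 genes did. No gene on the lists of remaining family members, shedding, adaptors, inhibitors or ERK targets passed the treatment test in any class.

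**Figure D5:**
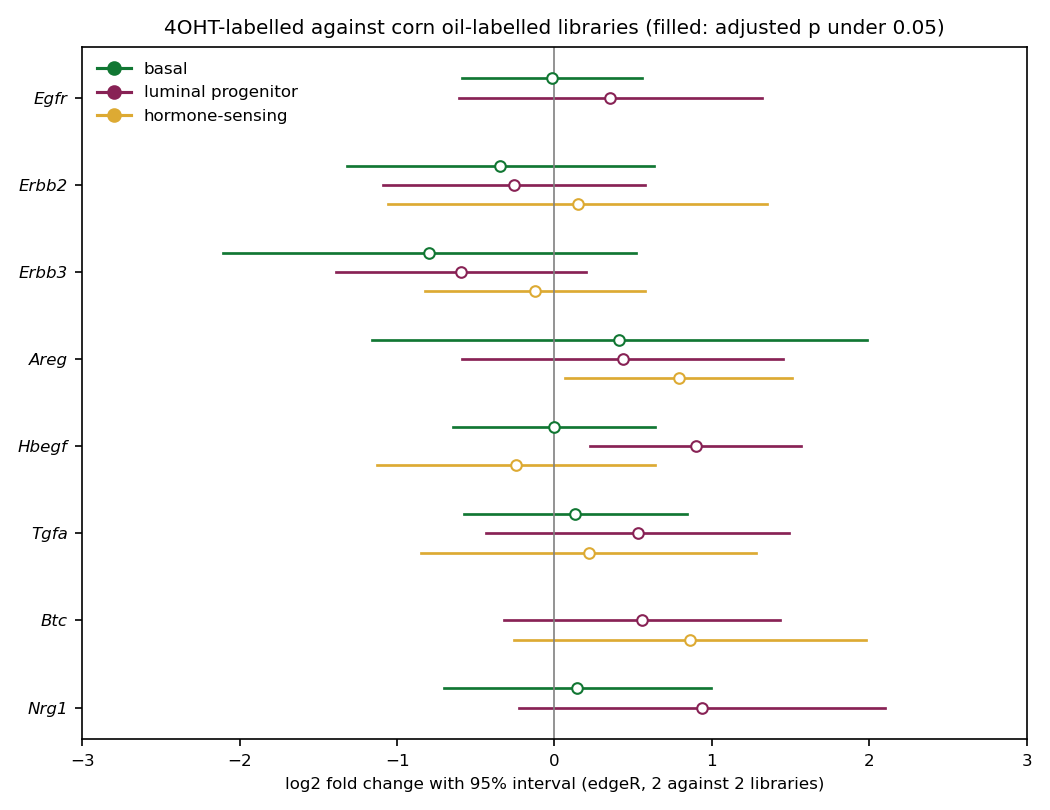
Log2 fold change of 4OHT-labelled against corn oil-labelled libraries (horizontal axis, 95% intervals, edgeR with 2 libraries a group) for the genes tested in each class. All points are open because none passed the test, and the intervals of Hbegf in luminal progenitors and of Areg in hormone-sensing cells lie right of 0 before adjustment.

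The genes whose log2 CPM followed each of 4 members most closely over the 12 sums (3 classes in 4 libraries) were listed as a description, since all sums of a class share its identity. For Areg they were Prlr (Pearson r 0.993), Slc12a2 and Tspan1 (0.990 and 0.989), for Egfr Fas (0.987), Pdia6 and Nap1l1, for Erbb3 Tmc4 (0.989), Gdpd1 and Desi1, and for Nrg1 Tor1aip2 (0.979), Tagln and Palld. Prlr, the prolactin receptor, stood on average at 527 CPM in hormone-sensing cells and 3.97 CPM in basal cells. Tagln, a smooth muscle gene, stood at 2799 CPM in basal and 27.1 CPM in hormone-sensing cells.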

How the data were processed

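Single-cell 3′ libraries of mammary epithelial cells were sequenced for 2 corn oil and 2 4OHT samples. Per the submitters' processing notes, the authors used bcl2fastq and Cell Ranger 3.0.1 with mm10, and the deposited matrices hold UMI counts, not normalized, for each gene in each cell. Gene symbols and cell barcodes came from the deposited feature and barcode files. Introns, strand and cell calling settings are not given in the sources used here.

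Counts of the cells of a class were added within each library, and CPM was computed from these sums. The test was the quasi-likelihood test of edgeR 4.0.16 under R 4.3.3 over all genes passing filterByExpr, with TMM factors and Benjamini-Hochberg adjustment at 0.05. Treatment was tested within each class on 4 sums, and classes and their interaction with treatment on 12 sums with library as a block. Endothelial-like and leukocyte-like cells held at least 3 UMIs, and fibroblast-like cells at least 5, of their markers. No doublet caller was run. The tests were checked on simulated counts. Total UMI counts per library of 17351950 to 22017878 limit genes with few counts. The exact intervals of shares cover counting error only. The edgeR intervals of treatment within a class include the spread between libraries. Those of class comparisons include the spread of class differences between libraries.

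Alternatives were RLE size factors, no filter, a stricter class rule, a filter on genes and mitochondrial counts, DESeq2 1.42.0, a replicate block and leaving out each library. All 9 genes were named, with up to 4 genes of each pathway list per comparison, those with the largest change among the genes that passed. Errfi1 and Adam17 were named beyond this rule. The genes and lists were chosen with earlier results of these data known.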

Additional observations from a re-analysis of the deposited data

Results flagged for a closer look

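Ereg appeared outside the epithelial classes. In the fibroblast-like cells of 4OHT replicate 1 it gave 5 UMIs (50.4 CPM), all of them in 1 of 25 cells, while the 78 fibroblast-like cells of corn oil replicate 2 gave 0 UMIs. These cells entered no comparison. The value rests on 1 cell of 1 library, and no difference between the groups was tested.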

How the results depend on the processing

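The class results of the 8 tested genes kept their direction in the alternatives run, except Erbb2 between the luminal classes, which was -0.047 (log2) without the filter and changed sign when 1 library was left out. No member passed the treatment test in any alternative. The number of genes called for treatment depended on the setting. In basal cells it was 0, and became 93 without the filter, 38 with DESeq2, 167 with the replicate block and 17 to 127 when each library was left out. In luminal progenitors it was 0, and became 39, 1, 9 and 31 to 64 in the same order. In hormone-sensing cells it was 1, and became 59, 7, 3 and 4 to 80. For the difference of effect between progenitors and basal cells it was 0, and became 39 without the filter and 0 to 7 with a library left out. For that between hormone-sensing and basal cells it was 1, and became 80 without the filter, 0 with RLE factors, 0 with the stricter class rule, 0 without cells holding markers of other types, and 0 to 14 with a library left out. The cause was not tested. Where a library was left out, the lone sample of its group was assumed to vary like the other group.

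The basal treatment difference of Hbegf, -0.0033, was 0.0082 with RLE factors, 0.0081 with DESeq2 and 0.22 without cells holding markers of other types. With each library left out, treatment differences changed sign in basal cells for Egfr (-0.036 to 0.038), Areg (-0.83 to 1.08), Hbegf (-0.13 to 0.13), Tgfa (-0.12 to 0.37) and Nrg1 (-0.18 to 0.60), in progenitors for Egfr (-0.38 to 0.83), Erbb2 (-0.50 to 0.069) and Areg (-0.22 to 0.97), and in hormone-sensing cells for Erbb2 (-0.29 to 0.76), Erbb3 (-0.32 to 0.030) and Tgfa (-0.12 to 0.53). The same held for Erbb2 between the luminal classes (-0.16 to 0.15), for Areg in the difference of effect of progenitors (-0.20 to 0.62) and of hormone-sensing cells (-0.23 to 1.34) from basal cells, and for Hbegf in the latter (-0.64 to 0.11). Without thinning, Areg with a Pgr UMI minus without was 138 CPM in corn oil replicate 2 and -69.5 CPM in 4OHT replicate 1. Samples with the same replicate number deviated together (correlations 0.565, 0.321 and 0.223 in basal, progenitor and hormone-sensing cells), but with 2 pairs they share only a number, and the block changed no member's call. Without the library block, the class calls of the members were kept. Without the filter, the median of all genes moved to -0.11 (log2) for progenitors and -0.25 for hormone-sensing cells against basal cells.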

Other observations

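The 3646 cells that met neither keratin rule, nor the rules for endothelial-like, fibroblast-like or leukocyte-like cells, carried a mixture of the 9 genes. Their Egfr level was 26.3 to 38.1 CPM over the 4 libraries and their Tgfa level 12.9 to 30.9 CPM. Hbegf varied most there, with 4.54 and 23.8 CPM in the corn oil libraries and 12.4 and 47.5 CPM in the 4OHT libraries. Btc was at 0.908, 3.63, 0.698 and 6.64 CPM. In fibroblast-like cells Egfr gave 12 UMIs in corn oil replicate 2 (40.5 CPM) and 4 UMIs in 4OHT replicate 1 (40.3 CPM), from 7 of 78 and 2 of 25 cells. Btc gave 8 UMIs in 4OHT replicate 2, all in 1 of 9 such cells. These values entered no comparison.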
